A study of Mus musculus with 9 samples.

Results

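The nuclear genes for subunits of the mitochondrial respiratory chain were followed in GFP-labelled 3LL cells, the Lewis lung carcinoma (LLC) line, a transplantable mouse tumour line whose strain the labels give as C57/BL6. They were picked by symbol (Nduf followed by a, b, c, s or v and a digit, Sdha to Sdhd, Uqcr, Cox4 to Cox8, and Atp5), which gave 84 of the 19505 genes with a symbol on the array, each read by 1 feature. By name, 37 belong to complex I, 4 to complex II, 8 to complex III, 18 to complex IV and 17 to complex V. There were 9 arrays, 3 for each of 3 groups: GFP-positive cells isolated from the lung 7 days after intrapulmonary transplantation, GFP-positive cells isolated from under the skin 7 days after subcutaneous transplantation, and cells of the same line kept in dish culture for 7 days. All samples carry the GFP label and come from 1 cell line, and all carry the tissue label lung. The labels leave unsaid whether each sample is its own animal or culture dish. The p-values therefore reflect only how far these 9 samples scatter, and part of that scatter may be technical. The design text gives the lung model an abbreviation that is not spelled out and was not interpreted.

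The respiratory chain passes electrons from NADH (complex I) and succinate (complex II) through coenzyme Q, complex III and cytochrome c to complex IV, which reduces oxygen, and the proton gradient this builds drives ATP synthase, complex V. Apart from complex II, each complex mixes subunits encoded in mitochondrial DNA with nuclear ones, and only the nuclear ones are described here. Their promoters are known for sites of the nuclear respiratory factor NRF1 and of the ETS factor GABP, also called NRF2, and tumours often shift their balance between respiration and glycolysis with oxygen supply.

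RefSeq promoter windows of assembly GRCm38.p6, from 250 bases before to 50 after a start site, were found for 69 of the 84 genes (74 windows). Searched on both strands, the NRF1 core, a pair of GCGC blocks around the bases AT, was present in 5 of the 74 windows (6.76%), against 0.971% of all 32851 windows. A looser form, which allows any 2 bases (NN) between the blocks and so takes in the core, was in 19 windows (25.7%), against 6.23% of all windows. The ETS core CCGGAAG was in 17 (23.0%), against 8.86%. Of the 14 genes that rose in lung against subcutaneous samples 12 had a window, of which 3 held the looser NRF1 form and 2 the ETS core. Of the 54 genes with a window that were not called, 13 held the looser form and 15 the ETS core. Of the 3 genes with a window among the 4 that fell, 2 held the looser form and 0 the ETS core. As examples, the windows of 5 genes are shown that held a match and were called in lung against subcutaneous samples. They are Uqcrc1 chr9:108936398-108936697 on the plus strand, Sdha chr13:74350191-74350490 on the minus strand and Atp5g2 chr15:102670998-102671297 on the minus strand. The others are Ndufs3 chr2:90904672-90904971 on the minus strand and Sdhb chr4:140961021-140961320 on the plus strand. The windows of Cox7a2l, Ndufs7, Ndufb4b and Atp5g1, which were also called, held 0 matches to the 3 motifs and are not shown. Capitals mark matches to any of the 3 motifs, and a match is a match of letters only.
Uqcrc1: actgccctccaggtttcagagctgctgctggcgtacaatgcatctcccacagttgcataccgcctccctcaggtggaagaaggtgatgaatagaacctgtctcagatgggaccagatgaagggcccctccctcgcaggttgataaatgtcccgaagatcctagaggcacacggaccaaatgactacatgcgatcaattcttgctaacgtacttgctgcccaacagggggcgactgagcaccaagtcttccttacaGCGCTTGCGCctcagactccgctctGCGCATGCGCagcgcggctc
Sdha: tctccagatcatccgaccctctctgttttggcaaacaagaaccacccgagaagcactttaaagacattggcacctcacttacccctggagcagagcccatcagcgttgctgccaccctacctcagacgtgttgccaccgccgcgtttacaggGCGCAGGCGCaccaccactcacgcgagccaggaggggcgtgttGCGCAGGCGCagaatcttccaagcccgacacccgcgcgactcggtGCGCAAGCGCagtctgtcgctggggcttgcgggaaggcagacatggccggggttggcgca
Atp5g2: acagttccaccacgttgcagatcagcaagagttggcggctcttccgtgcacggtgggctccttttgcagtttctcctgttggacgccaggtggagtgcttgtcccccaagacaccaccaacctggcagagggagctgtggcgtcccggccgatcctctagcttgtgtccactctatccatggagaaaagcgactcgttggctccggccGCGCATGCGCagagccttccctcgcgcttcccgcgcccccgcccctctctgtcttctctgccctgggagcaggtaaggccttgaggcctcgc
Ndufs3: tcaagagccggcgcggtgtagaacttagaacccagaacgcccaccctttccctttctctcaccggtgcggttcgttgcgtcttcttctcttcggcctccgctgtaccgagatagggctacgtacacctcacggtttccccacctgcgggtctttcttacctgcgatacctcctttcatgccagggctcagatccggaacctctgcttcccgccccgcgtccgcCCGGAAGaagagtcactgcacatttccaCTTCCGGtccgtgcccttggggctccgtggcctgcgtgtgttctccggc
Sdhb: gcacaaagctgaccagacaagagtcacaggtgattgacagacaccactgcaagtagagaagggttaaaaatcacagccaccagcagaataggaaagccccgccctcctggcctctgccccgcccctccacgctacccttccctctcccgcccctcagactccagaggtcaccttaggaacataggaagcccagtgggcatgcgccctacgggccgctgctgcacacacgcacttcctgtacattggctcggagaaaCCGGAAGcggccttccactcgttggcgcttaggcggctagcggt
Uqcrc1, which was higher in lung than in subcutaneous samples, and Atp5g2, which was lower, are the 2 called genes with the NRF1 core, with the match starting at position 31 from the start site in Uqcrc1 and at position -42 in Atp5g2. Sdha holds 3 looser NRF1 matches and 0 ETS matches, Ndufs3 2 ETS matches and Sdhb 1.

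Values are log2 signals as deposited, and differences are log2 fold changes. Background was read as the 90th percentile of the negative control features, 7.20 to 7.73 by array. All 9 arrays placed 72 of the 84 genes above it, and 4 were above it on some arrays (Ndufa7, Ndufs1, Sdha and Cox7a1). Another 8 were above it on 0 arrays: Ndufa4l2, Uqcrc2, Cox4i2, Cox6a2, Cox6b2, Cox7b2, Cox8b and Cox8c. A gene is said to rise, fall or be called only at an adjusted p under 0.05 (limma, all 9 arrays in 1 fit, Benjamini-Hochberg over 19505 genes). Markers of other cell types moved with the groups. The summed signal of 8 alveolar type II markers was 13.55 to 16.45 (log2) in lung samples, against 8.67 to 9.28 in subcutaneous and 8.02 to 8.54 in dish samples, and that of 5 airway secretory markers was 7.54 to 14.54 in lung samples, highest on lung replicate 3, against 6.84 to 7.30 in subcutaneous and 6.68 to 7.02 in dish samples. The summed signal of 4 fibroblast markers was 10.72 to 13.96 in lung, 16.47 to 17.25 in subcutaneous and 8.01 to 8.35 in dish samples. All 5 endothelial and all 5 brown adipocyte markers were under background on all 9 arrays, as were 5 of 6 heart muscle markers, 5 of 6 pericyte markers and 9 of 10 skeletal muscle markers. Of 6 macrophage markers Adgre1, Csf1r and Itgam were under background throughout, and the summed signal was 9.22 to 10.93 in lung, 8.79 to 9.45 in subcutaneous and 8.64 to 9.37 in dish samples. RNA integrity numbers (RIN) were 8.3, 7.9 and 8.3 in lung, 8.6, 7.5 and 7.8 in subcutaneous and 8.5, 8.6 and 8.4 in dish samples. Bacterial control features averaged 10.95 to 11.58 (log2) in lung, 12.73 to 12.96 in subcutaneous and 11.86 to 12.16 in dish samples. The share of genes above background was 32.4% to 34.4% in lung, 28.0% to 31.4% in subcutaneous and 29.0% to 32.6% in dish samples. Array differences that follow the groups cannot be told apart from the site. The part of the markers, of RNA integrity and of these array differences in the differences below was not tested beyond the alternatives given. In such samples fewer cells of a type and less RNA per cell cannot be told apart.

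**Figure D1:**
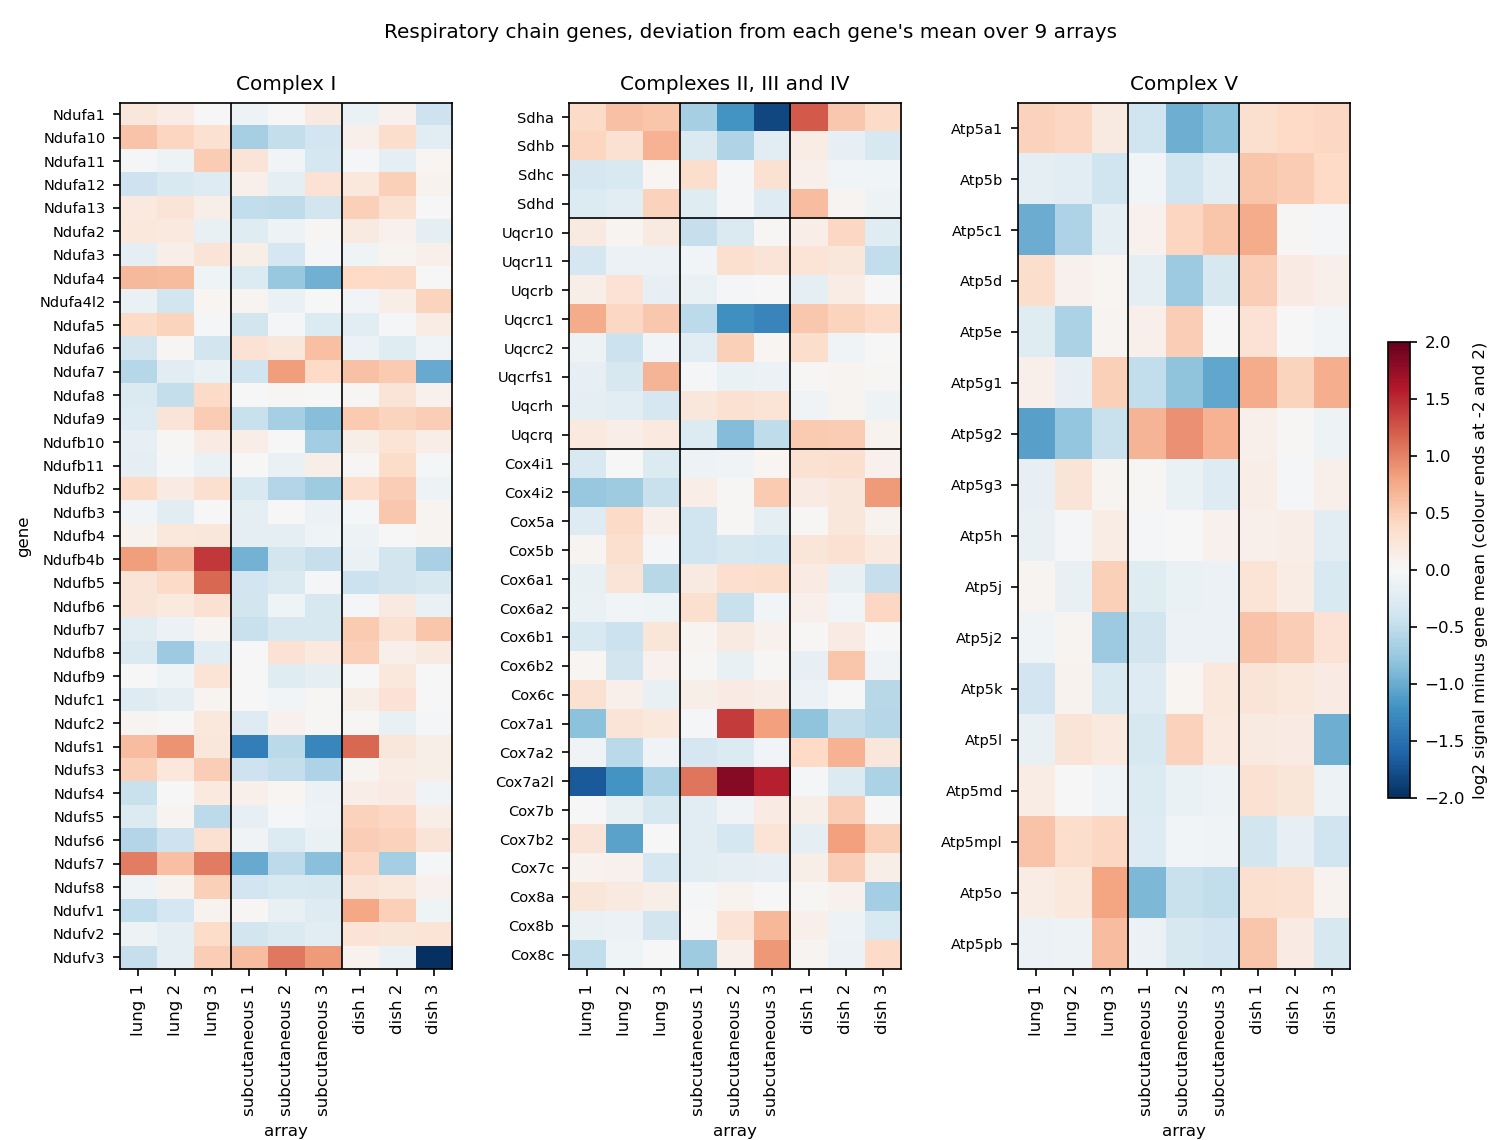
Each row is 1 of the 84 respiratory chain genes and each column 1 array, from lung through subcutaneous to dish. Colour gives the log2 signal minus the gene's mean over the 9 arrays, red higher and blue lower; Sdha, Ndufs1, Uqcrc1 and Atp5a1 are blue on the 3 subcutaneous arrays while Cox7a2l and Atp5g2 are red there.

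Between lung and subcutaneous samples, several core subunits rose in the lung: the complex I subunits Ndufs7 and Ndufs1, the succinate dehydrogenase flavoprotein Sdha, the complex III core protein Uqcrc1 and the ATP synthase alpha subunit Atp5a1. The supercomplex factor Cox7a2l and the ATP synthase c subunit gene Atp5g2 fell. Of the 84 genes, 14 rose (16.7%) and 4 fell (4.76%), against 9.21% of all 19505 genes called higher and 5.79% called lower (15.0% in all). Over all genes that is 1797 higher and 1130 lower, and 1405 and 1248 after quantile normalization. Among the 72 members above background on all 9 arrays 16.7% rose and 4.17% fell, beside 18.8% and 11.2% of the 4804 genes of the whole array that lay as high, so the share that rose is near that of other well detected genes. The median difference was 0.13 over the 84 genes and -0.07 over all genes, or 0.16 in both the 72 members and the 4804 well detected genes. By complex as named, 8 of 37 rose and 0 fell in complex I (median 0.19), and 2 of 4 and 0 in complex II (0.50). In complex III 1 of 8 rose and 0 fell (0.15), and in complex IV 0 of 18 rose and 2 fell (-0.13). In complex V 3 of 17 rose and 2 fell (0.18). Ndufa4, among the 8, is named for complex I but found in complex IV. Cox4i2, among the 2 that fell in complex IV, was under background on all 9 arrays. At an unadjusted limma p under 0.05, 14, 2, 3, 4 and 7 genes of complexes I to V passed. That is 30 of the 84 genes, beside 5675 of all 19505 genes. Among the well detected, 26 of the 72 members passed, beside 2310 of the 4804 genes, which is a larger share.

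**Figure D2:**
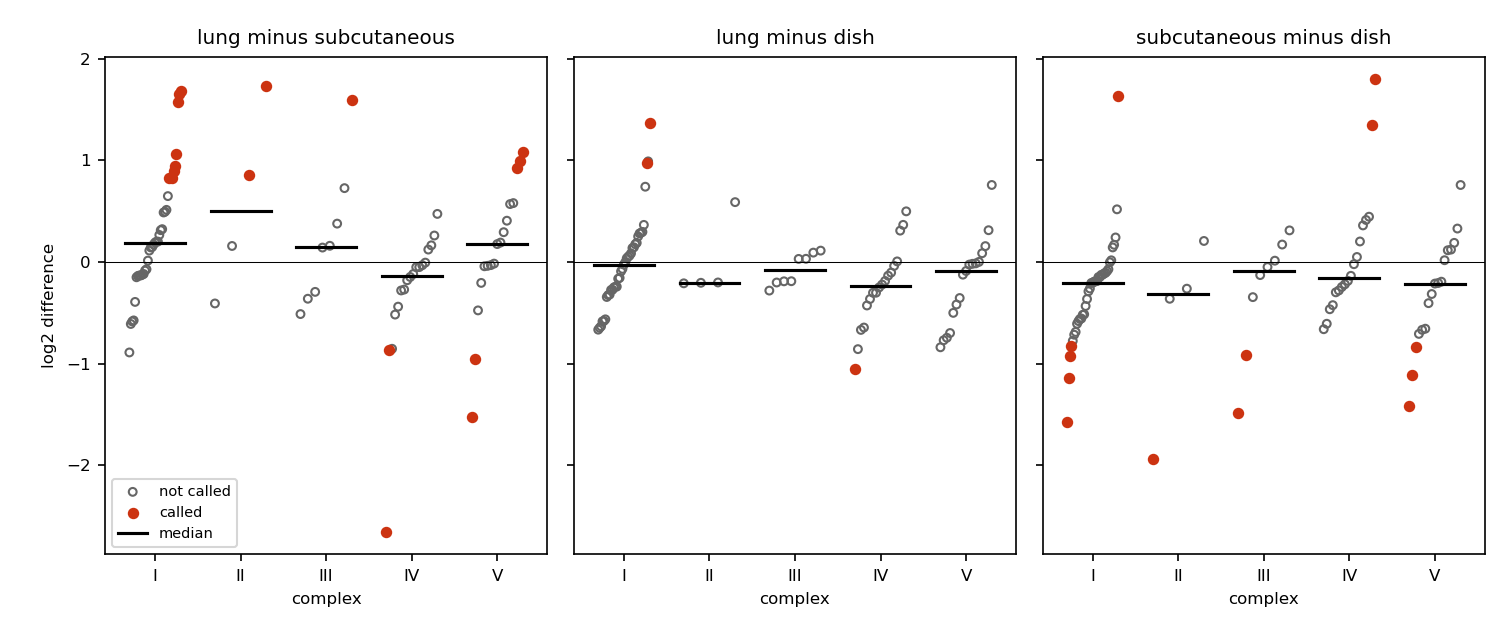
Points are the log2 differences of the 84 genes, set out by complex and sorted within it, in 3 panels for lung minus subcutaneous, lung minus dish and subcutaneous minus dish samples. Filled points are called at an adjusted p under 0.05 and bars are medians; 18, 3 and 13 genes are filled in the 3 panels.

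In complex I, Ndufs7, an iron-sulphur subunit next to the site where coenzyme Q binds, was at 10.77, 10.33 and 10.77 in lung samples, against 8.72, 9.22 and 8.90 in subcutaneous samples (log2 difference 1.68, standard error 0.29, adjusted p = 0.00251). All 3 lung values lay above the 3 subcutaneous ones. Lack of overlap was part of the rule by which called genes were named with values, so here and below it adds no support to a call. Ndufs1, the largest iron-sulphur subunit of the arm that takes electrons from NADH, was at 7.72, 7.99 and 7.32 in lung and 5.72, 6.56 and 5.79 in subcutaneous samples (log2 difference 1.65, standard error 0.33, adjusted p = 0.00526). It was under background on all 3 subcutaneous arrays and above it on 2 of 3 lung arrays. The lung mean lay only 0.17 above the mean subcutaneous background, so the size of the difference is uncertain. Ndufb4b, listed on the array as a second gene for the B4 accessory subunit, was at 12.79, 12.64 and 13.38 in lung and 11.01, 11.59 and 11.50 in subcutaneous samples (log2 difference 1.57, standard error 0.27, adjusted p = 0.00244). Its value is uncertain, because its feature could share signal with the related Ndufb4. Ndufb4 itself was at 14.72 ± 0.09 in lung and 14.40 ± 0.06 in subcutaneous samples (SD, n = 3 each), with a difference of 0.32 (adjusted p = 0.343). Also higher were Ndufa4 (1.07), named for complex I but found in complex IV, Ndufa10 (0.95), the core subunit Ndufs3 (0.89) and the accessory subunits Ndufb2 (0.83) and Ndufa9 (0.82). The flavoprotein Ndufv1, which holds the NADH site, did not pass, at 12.86 ± 0.29 in lung and 12.99 ± 0.14 in subcutaneous samples (difference -0.13, adjusted p = 0.793). The 29 genes of complex I that were not called lay between -0.89 (Ndufv3) and 0.83 (Ndufb5).

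In complex II, which is also the succinate dehydrogenase of the citric acid cycle, Sdha was at 8.02, 8.21 and 8.17 in lung and 6.97, 6.44 and 5.81 in subcutaneous samples (log2 difference 1.73, standard error 0.31, adjusted p = 0.00311). The groups did not overlap, and since all 3 subcutaneous values were under background the difference is at least 0.62. Its iron-sulphur partner Sdhb was at 15.22, 15.10 and 15.49 in lung and 14.50, 14.19 and 14.56 in subcutaneous samples (log2 difference 0.85, standard error 0.24, adjusted p = 0.0302). The membrane anchors did not pass, with differences of -0.41 for Sdhc and 0.16 for Sdhd. In complex III, Uqcrc1, a core protein on the matrix side, was at 14.89, 14.55 and 14.68 in lung and 13.62, 12.91 and 12.82 in subcutaneous samples (log2 difference 1.59, standard error 0.26, adjusted p = 0.00158), again without overlap. The Rieske iron-sulphur protein Uqcrfs1 did not pass (10.88 ± 0.54 in lung and 10.72 ± 0.05 in subcutaneous samples, difference 0.16, adjusted p = 0.748), and the 7 genes not called ran from -0.51 (Uqcrh) to 0.73 (Uqcrq, adjusted p = 0.0619).

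Complex IV held the largest difference among the 84 genes. Cox7a2l, a relative of the Cox7a subunits that links complexes III and IV into supercomplexes and of which C57BL/6 mice carry a short form, was at 11.06, 11.53 and 12.10 in lung and 13.80, 14.56 and 14.29 in subcutaneous samples (log2 difference -2.65, standard error 0.31, adjusted p = 0.00027). Every subcutaneous value lay above every lung value. Cox4i2, the Cox4 form known for its induction by low oxygen and its expression in lung, was called lower as well (-0.86, adjusted p = 0.0412), but at 4.36 ± 0.17 in lung and 5.22 ± 0.26 in subcutaneous samples it was under background on all 9 arrays, so no fold is read from it. The common form Cox4i1 was at 16.75 ± 0.17 in lung and 16.90 ± 0.08 in subcutaneous samples (difference -0.15, adjusted p = 0.708), and Cox5a, which lies beside it at the matrix side, had a difference of 0.26 (adjusted p = 0.524). The 16 genes of complex IV that were not called lay between -0.85 (Cox7a1) and 0.47 (Cox5b).

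In complex V, the alpha subunit Atp5a1, which forms the catalytic head with Atp5b, was at 17.38, 17.33 and 17.11 in lung and 16.53, 15.95 and 16.10 in subcutaneous samples (log2 difference 1.08, standard error 0.23, adjusted p = 0.00823). Atp5b, the catalytic beta subunit, was at 18.23, 18.19 and 18.01 in lung and 18.35, 18.00 and 18.19 in subcutaneous samples, overlapped between the groups and did not pass (difference -0.04, adjusted p = 0.932). Atp5o, part of the stalk that holds the head in place, rose (13.25, 13.31 and 13.88 in lung and 12.20, 12.66 and 12.60 in subcutaneous samples, difference 0.99, adjusted p = 0.019), while the central stalk subunit Atp5c1 fell (10.55, 10.94 and 11.36 in lung and 11.63, 11.98 and 12.10 in subcutaneous samples, difference -0.95, adjusted p = 0.0433). The genes for the c subunit, which forms the rotating ring, moved unequally. Atp5g1 was at 13.80, 13.55 and 14.19 in lung and 13.22, 12.90 and 12.66 in subcutaneous samples (log2 difference 0.92, standard error 0.25, adjusted p = 0.028), and Atp5g2 at 9.45, 9.77 and 10.10 in lung and 11.22, 11.45 and 11.23 in subcutaneous samples (log2 difference -1.53, standard error 0.24, adjusted p = 0.00127). The third gene, Atp5g3, did not pass (15.04 ± 0.21 in lung and 14.86 ± 0.14 in subcutaneous samples, difference 0.18, adjusted p = 0.654). These 3 genes are known to encode the same mature protein behind different import sequences. Within each array, the log2 ratio of Atp5g1 to Atp5g2 was 4.07 ± 0.28 in lung and 1.63 ± 0.32 in subcutaneous samples (SD, n = 3 each), a difference of 2.45 with an exact two-sided permutation p of 0.1, the smallest that 3 against 3 arrays allow. Over the 9 such tests run, for 3 gene pairs picked with the values known, its adjusted p was 0.15.

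**Figure D3:**
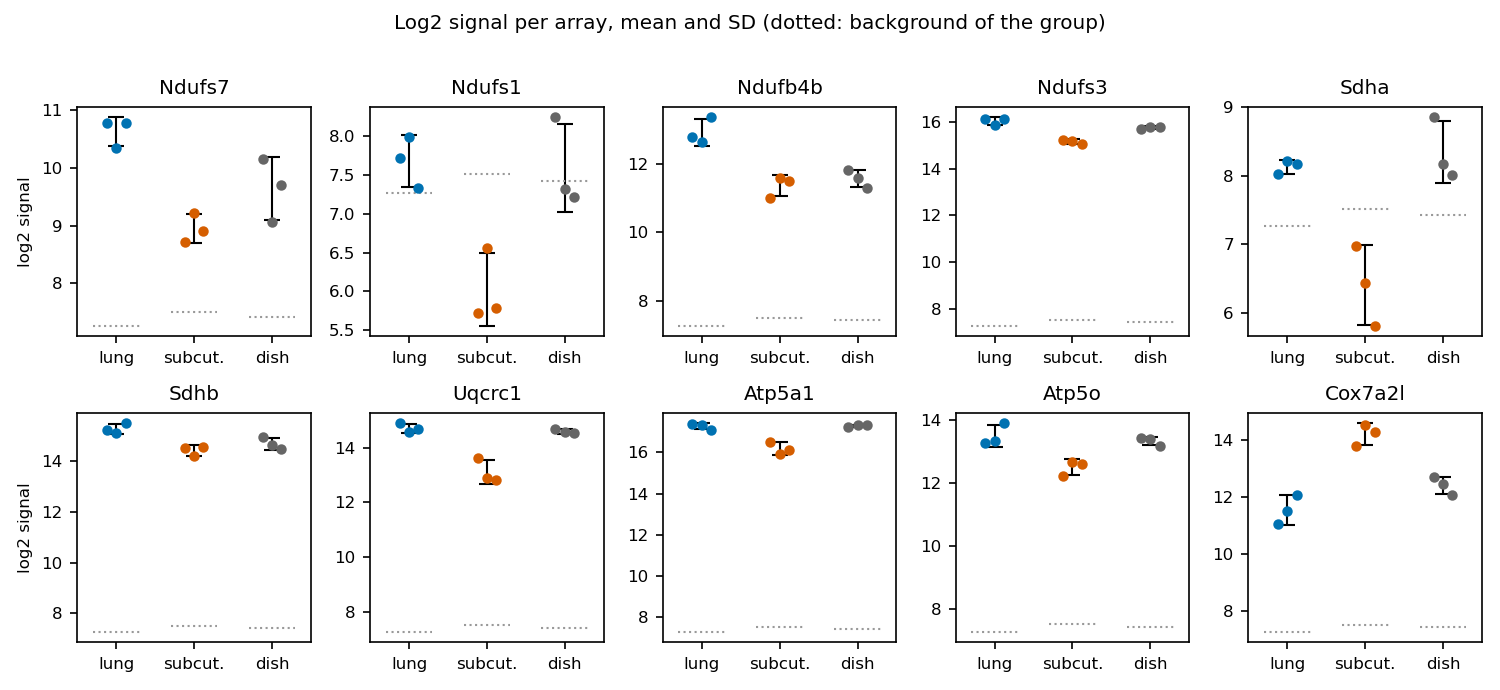
Log2 signal on each array for 10 genes in lung, subcutaneous and dish samples, with mean and SD (n = 3). Dotted lines are the mean background of each group's arrays; Ndufs1 and Sdha lie under it in the subcutaneous samples.

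Of the 18 calls, 8 held when any 1 of the 9 arrays was left out: Ndufs7 (highest adjusted p = 0.0162), Ndufs1 (0.0257), Ndufb4b (0.011), Sdha (0.0138), Uqcrc1 (0.0123), Atp5a1 (0.0446), Cox7a2l (0.00218) and Atp5g2 (0.0107). The other 10, with an adjusted p from 0.0148 (Ndufs3) to 0.0433 (Atp5c1) on all arrays, were lost without at least 1 array. Some were also lost without a dish array, which leaves the difference itself as it was. Ndufs3 was lost without lung replicate 1 (difference 0.85, adjusted p = 0.069). Ndufa10 was lost without lung replicate 1 or 2 (difference 0.88 to 0.95, adjusted p 0.0504 to 0.0783). Atp5o was lost without lung replicate 3 or subcutaneous replicate 1 (difference 0.79 to 0.85, adjusted p 0.0602 to 0.0624). Sdhb was lost without lung replicate 1, 2 or 3 or subcutaneous replicate 2 (difference 0.74 to 0.94, adjusted p 0.0519 to 0.0922). Ndufa4 was lost without lung replicate 1 or 2 or subcutaneous replicate 2 or 3 (difference 0.92 to 1.02, adjusted p 0.0626 to 0.102). Atp5g1 was lost without lung replicate 1 or 3 or subcutaneous replicate 2 or 3 (difference 0.75 to 0.94, adjusted p 0.0655 to 0.0934). Ndufb2 was lost without lung replicate 1, 2 or 3 or subcutaneous replicate 2 or 3 (difference 0.74 to 0.89, adjusted p 0.0686 to 0.128). Ndufa9 fell short without lung replicate 2 or 3, subcutaneous replicate 2 or 3 or dish replicate 1, 2 or 3 (difference 0.65 to 0.82, adjusted p 0.0548 to 0.125). Atp5c1 fell short without lung replicate 1 or 2, subcutaneous replicate 2 or 3 or dish replicate 2 or 3 (difference -0.75 to -0.95, adjusted p 0.0505 to 0.184). Cox4i2 fell short without lung replicate 1 or 2, subcutaneous replicate 1, 2 or 3 or dish replicate 2 (difference -0.72 to -0.96, adjusted p 0.0535 to 0.139). The count of 18 was 10 without lung replicate 1, 11 without lung replicate 2 and 11 without subcutaneous replicate 2. On lung replicate 3, which carried the most airway marker signal, the 84 genes stood 0.16 (median) above the mean of lung replicates 1 and 2, with 56 of 84 higher, beside -0.01 over all genes. Without it 9 genes rose and 4 fell.

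The subcutaneous samples were set against the dish samples to ask how growth under the skin differed from culture. Here the flavoprotein Sdha, the NADH-side subunit Ndufs1, the core protein Uqcrc1, the c subunit gene Atp5g1 and the alpha subunit Atp5a1 fell, and Cox7a2l rose. In all, 3 of 84 genes rose (3.57%) and 10 fell (11.9%), against 6.41% and 6.47% of all genes (12.9% in all). Among the 72 well detected members 2.78% rose and 11.1% fell, beside 14.1% each of the 4804 well detected genes. The median difference was -0.20 over the 84 genes, against -0.01 over all genes. By complex as named, 1 of 37 rose and 4, Ndufa4 among them, fell in complex I. The numbers that rose and fell were 0 and 1 of 4 in complex II and 0 and 2 of 8 in complex III. They were 2 and 0 of 18 in complex IV, and 0 and 3 of 17 in complex V. This comparison shares its subcutaneous arrays with the one above, so neither backs the other.

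Sdha was at 8.85, 8.17 and 8.01 on the dish arrays, a subcutaneous minus dish difference of -1.94 (standard error 0.31, adjusted p = 0.00124), at least 0.83 lower under the skin because of background. Ndufs1 was at 8.24, 7.32 and 7.22 in the dish, above background on replicate 1 only (difference -1.57, adjusted p = 0.00668). With most of its values in both groups under background, no size is read from the fall. Uqcrc1 was at 14.68, 14.59 and 14.52 in the dish (difference -1.48, adjusted p = 0.0019), above all 3 subcutaneous values. Atp5g1 was at 14.45, 14.16 and 14.43 (difference -1.42, adjusted p = 0.00234) and Atp5a1 at 17.23, 17.32 and 17.34 (difference -1.11, adjusted p = 0.00692) in dish samples. Ndufa9, an accessory subunit near the coenzyme Q site, was at 13.84 ± 0.20 in subcutaneous and 14.98 ± 0.04 in dish samples (SD, n = 3 each; difference -1.14, adjusted p = 0.00852). Cox7a2l was at 12.71, 12.45 and 12.10 in the dish (difference 1.80, adjusted p = 0.00179), below every subcutaneous value. These 7 calls held without any 1 array (highest adjusted p = 0.0326). With RIN as a covariate, Atp5a1 (-0.89, adjusted p = 0.0863) and Ndufa9 (-1.05, adjusted p = 0.0747) were no longer called, and 5 of the 84 genes were. Among the subcutaneous arrays, replicate 1, with the highest RIN, had the highest values of Sdha, Uqcrc1, Atp5a1 and Atp5g1 and the lowest of Ndufs1 and Atp5o.

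The other 6 calls were lost without at least 1 array, Ndufa4, Atp5o and Ndufv3 also without lung arrays, which do not enter the difference. The small complex III subunit Uqcrq (-0.91, adjusted p = 0.0243) was lost without subcutaneous replicate 2 or 3 or dish replicate 1 or 2 (difference -0.76 to -0.93, adjusted p 0.05 to 0.0911). Ndufb7 (-0.83, adjusted p = 0.0233) was lost without subcutaneous replicate 1 or 2 or dish replicate 1 or 3 (difference -0.78 to -0.85, adjusted p 0.051 to 0.0742). Ndufa4 (-0.93, adjusted p = 0.0462) was lost without lung replicate 1 or 2, subcutaneous replicate 2 or 3 or dish replicate 1, 2 or 3 (difference -0.78 to -1.06, adjusted p 0.0556 to 0.141). Atp5o (-0.83, adjusted p = 0.046) was lost without lung replicate 1 or 2, subcutaneous replicate 1, 2 or 3 or dish replicate 1, 2 or 3 (difference -0.69 to -0.92, adjusted p 0.0584 to 0.136). Cox7a1, the Cox7a form of heart and skeletal muscle, was at 7.46, 8.87 and 8.30 in subcutaneous samples, against 6.68, 7.00 and 6.91 in dish samples, where it was under background (difference 1.35, at least 0.79, adjusted p = 0.0275). It was lost without subcutaneous replicate 2 or 3 or dish replicate 1, 2 or 3 (difference 1.02 to 1.42, adjusted p 0.0658 to 0.112), and was 0.70 (adjusted p = 0.302) with RIN as a covariate. All 10 skeletal muscle markers were under background on all subcutaneous and dish arrays. Even so, 2 of the 10 were called higher in subcutaneous than in dish samples and 0 lower, and 1 was above background on the lung arrays. Of 6 heart muscle markers, 5 were under background on all 3 subcutaneous arrays, and 0 were called between subcutaneous and dish samples. The part of muscle cells in the Cox7a1 difference was not tested. Ndufv3, a small subunit at the NADH end of complex I, was at 11.83, 12.27 and 12.08 in subcutaneous samples and 11.29, 11.08 and 8.92 in dish samples, with dish replicate 3 below the other 2 (difference 1.63, adjusted p = 0.0478). Without dish replicate 3 the difference was 0.88, and the call was lost without lung replicate 1 or 2, subcutaneous replicate 1, 2 or 3 or dish replicate 3 (difference 0.88 to 1.74, adjusted p 0.0587 to 0.13). The count of 13 was 7 without subcutaneous replicate 2, 8 without subcutaneous replicate 3 and 8 without dish replicate 1.

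Between lung and dish samples few of the 84 genes were called. Ndufb4b and Ndufb5, accessory subunits of the membrane arm of complex I, rose and Cox4i2 fell, which is 2.38% higher and 1.19% lower, against 4.81% and 1.97% of all genes (6.78% in all). Among the 72 well detected members 2.78% rose and 0% fell, beside 9.47% and 3.68% of the 4804 well detected genes. Over all genes 938 were higher and 384 lower, and 662 and 553 after quantile normalization, so that split depends on the scaling. Ndufb4b was 1.36 higher (standard error 0.27, adjusted p = 0.0105), with dish values of 11.82, 11.59 and 11.32, all below the 3 lung values, and was lost without dish replicate 3 (difference 1.23, adjusted p = 0.0521). Ndufb5 was at 13.22, 13.34 and 14.10 in lung and 12.53, 12.59 and 12.63 in dish samples (difference 0.97, adjusted p = 0.0445), highest on lung replicate 3. It was lost without lung replicate 1, 2 or 3, subcutaneous replicate 1 or 2 or dish replicate 1, 2 or 3 (difference 0.70 to 1.14, adjusted p 0.0533 to 0.13). Cox4i2, under background in both groups, differed by -1.05 (adjusted p = 0.0294) and was lost without lung replicate 1 or 2 or dish replicate 2 or 3 (difference -0.83 to -1.14, adjusted p 0.0692 to 0.12). Of the genes that were low under the skin, the lung minus dish difference was -0.21 (standard error 0.31) for Sdha, 0.08 (0.33) for Ndufs1, 0.11 (0.26) for Uqcrc1 and -0.03 (0.23) for Atp5a1. It was -0.50 (0.25) for Atp5g1, -0.32 (0.25) for Ndufa9, -0.56 (0.22) for Ndufb7, -0.19 (0.24) for Uqcrq, 0.14 (0.28) for Ndufa4 and 0.16 (0.25) for Atp5o, and none of these 10 passed (limma, adjusted p 0.147 to 0.966). The beta subunit Atp5b was at 18.14 ± 0.12 in lung and 18.18 ± 0.17 in subcutaneous samples, against 18.89 ± 0.08 in dish samples, and neither difference passed (-0.75, adjusted p = 0.0607, and -0.71, adjusted p = 0.0512). With the intensity trend both were called (adjusted p = 0.00196 and 0.00104). The count of 3 was 0 without dish replicate 3, 1 each without dish replicate 2, lung replicate 1 or lung replicate 2, and 5 without lung replicate 3, where Cox7a2l (-1.12), Atp5g2 (-0.93) and Ndufs6 (-0.90) were lower.

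Several subunits come in alternative forms made by separate genes, and most forms known from muscle, testis or low oxygen were under background on all 9 arrays. The exception was the muscle form Cox7a1, given above, which was above background on 5 arrays, 2 from lung and 3 from subcutaneous samples. Ndufa4l2, a relative of Ndufa4 known as a target of the oxygen-sensing factor HIF-1, was at 2.61 ± 0.21 in lung, 2.74 ± 0.10 in subcutaneous and 2.93 ± 0.25 in dish samples (SD, n = 3 each), under background on all arrays, while Ndufa4 was at 16.15 ± 0.42 in lung, 15.08 ± 0.35 in subcutaneous and 16.01 ± 0.23 in dish samples. The striated muscle forms Cox6a2 and Cox8b lay between 4.15 and 5.18 and the testis forms Cox6b2, Cox7b2 and Cox8c between 2.72 and 6.96, all under background in every sample. Their common partners were well detected and did not pass in any comparison: Cox6a1 (16.18 ± 0.40 in lung, 16.62 ± 0.09 in subcutaneous and 16.17 ± 0.31 in dish samples), Cox6b1 (12.72 ± 0.35 in lung, 12.99 ± 0.07 in subcutaneous and 12.95 ± 0.09 in dish samples), Cox7b (16.41 ± 0.16 in lung, 16.53 ± 0.19 in subcutaneous and 16.77 ± 0.26 in dish samples) and Cox8a (14.93 ± 0.06 in lung, 14.77 ± 0.06 in subcutaneous and 14.57 ± 0.42 in dish samples). Cox7a2 did not pass either, at 16.12 ± 0.27 in lung, 16.13 ± 0.15 in subcutaneous and 16.79 ± 0.24 in dish samples. The log2 ratio of Cox7a2l to Cox7a2 within each array, another pair picked with the values known, was -4.56 ± 0.57 in lung and -1.91 ± 0.36 in subcutaneous samples, and -4.37 ± 0.30 in dish samples. With 3 arrays a group, the exact permutation p was 0.1 for lung against subcutaneous and for subcutaneous against dish, the smallest possible, and 0.8 for lung against dish (adjusted p = 0.15, 0.15 and 0.8).

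**Figure D4:**
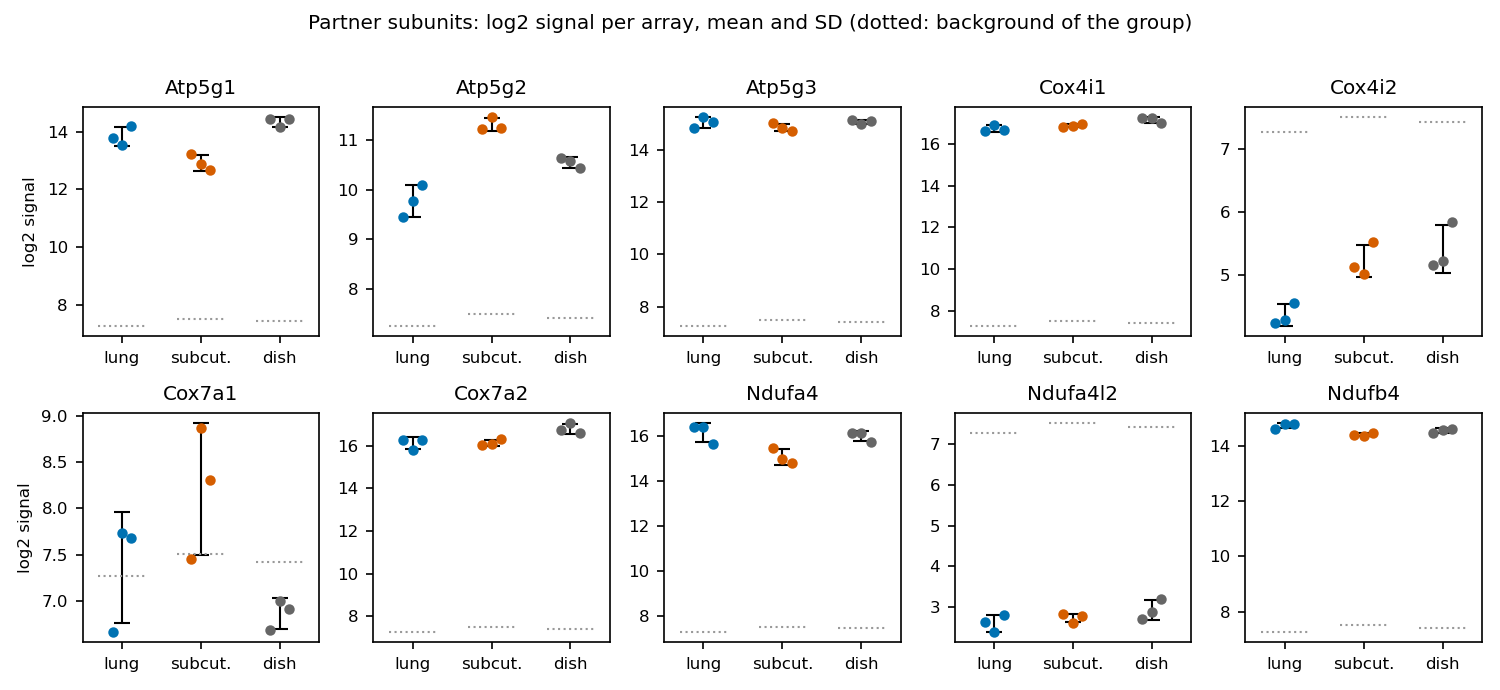
Log2 signal on each array for genes of alternative subunit forms, with mean and SD (n = 3) for lung, subcutaneous and dish samples and dotted lines at the mean background. Atp5g1 and Atp5g2 differ in opposite directions between lung and subcutaneous samples, and Cox4i2 and Ndufa4l2 stay under background in all groups.

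Genes that build or serve the chain were read from lists written out by name. Of 16 complex I assembly factors measured, 7 rose and 0 fell in lung against subcutaneous samples (43.8% and 0%, median 0.46). Beside this, 9.21% and 5.79% of all genes and 18.8% and 11.2% of the 4804 well detected genes rose and fell. In subcutaneous against dish samples 0 rose and 4 fell (0% and 25.0%), beside 14.1% each of the well detected genes. The same shares can be set beside the lists below, of which most also hold dim genes. Of the 7, Ecsit alone was called without any 1 array, and the number that rose was 3 without lung replicate 1 or 2 and 4 without lung replicate 3 or subcutaneous replicate 2. The 4 that fell were 2 without dish replicate 2. Ecsit, which joins the assembly of the membrane arm, was at 10.50, 10.03 and 10.42 in lung and 9.07, 9.39 and 8.09 in subcutaneous samples, against 10.41, 10.55 and 10.35 in dish samples (differences 1.47, adjusted p = 0.00736, and -1.59, adjusted p = 0.00432). Of 23 complex IV assembly genes, 4 rose (Coa7, Cox11, Taco1 and Cmc2) and 2 fell (Cox15 and Cox20) in lung against subcutaneous samples. These shares, 17.4% and 8.7%, were no larger than among the well detected genes. The copper chaperone Cox11 was at 11.00 ± 0.35 in lung and 8.93 ± 0.83 in subcutaneous samples (difference 2.07, adjusted p = 0.00309), and Coa7 rose by 2.23, at least 1.87. In the same comparison 0 of 6 complex III assembly factors were called, and Sdhaf1, a complex II assembly factor, and Atpaf1, a complex V assembly factor, each fell as 1 of 4 in its list (-1.51, at least 1.20 lower, and -1.29). Of 14 electron carrier and coenzyme Q genes, 5 rose (35.7%) and 0 fell: Coq7 (1.99), Coq4 (1.78), Coq5, Coq6 and the cytochrome c1 gene Cyc1 (1.13, adjusted p = 0.00487). Coq5, Coq6, Cyc1, Taco1, Cmc2, Cox15 and Cox20 are named after their values were seen. Without lung replicate 2 the 5 were 3. Taco1 was under background on all 9 arrays and Coq6 above it on 1, and Cmc2, Cox20, Coq5 and Coq6 lost their calls without at least 1 array. Coq7, a hydroxylase of coenzyme Q synthesis, was at 11.75, 11.92 and 11.55 in lung and 10.17, 9.58 and 9.52 in subcutaneous samples, against 11.20, 11.11 and 11.12 in dish samples.

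Among 15 regulators of mitochondrial biogenesis, the mitochondrial RNA polymerase Polrmt (2.04, adjusted p = 0.003) and the helicase Twnk (1.34, adjusted p = 0.0291, above background on 1 lung array and called in 5 of 9 fits without an array) rose in lung against subcutaneous samples (13.3%) and 0 fell. Of 12 citric acid cycle genes 1 rose (8.33%) and 2 fell (16.7%), beside 9.21% and 5.79% of all genes, with Idh3a, a subunit of the NAD-dependent isocitrate dehydrogenase, at 11.84 ± 0.47 in lung and 10.17 ± 0.37 in subcutaneous samples (1.67, adjusted p = 0.00295), and with Suclg2 and Dlst lower. Both lost the call without at least 1 array, and Dlst was under background on all 9 arrays and Suclg2 on 7. The hypoxia list holds genes known to respond to low oxygen or to take part in that response, and 2 of its 13 genes rose (15.4%) and 8 fell (61.5%) in lung against subcutaneous samples. The 8 were 5 without lung replicate 1 or 2 or subcutaneous replicate 2. In subcutaneous against dish samples 5 rose (38.5%) and 1 fell (7.69%), beside 6.41% and 6.47% of all genes. The stress gene Ndrg1 was at 11.00, 11.45 and 11.35 in lung and 14.62, 16.72 and 14.99 in subcutaneous samples, against 11.40, 11.43 and 10.38 in dish samples. The mitochondrial protease Lonp1, known to degrade the Cox4i1 protein at low oxygen, was at 12.81, 12.44 and 12.11 in lung and 9.73, 10.35 and 8.97 in subcutaneous samples, against 13.73, 13.22 and 12.82 in dish samples (differences 2.77, adjusted p = 0.000401, and -3.58, adjusted p = 3.78e-05). It is 1 of the 2 hypoxia list genes that rose, beside the dim Epas1, and its 3 subcutaneous values lay below all lung and dish values. In lung against dish samples the numbers that rose and fell were 0 and 0 for complex I assembly, 1 and 1 for complex II, 0 and 0 for complex III, 2 and 1 for complex IV and 0 and 0 for complex V assembly, 1 and 1 for electron carriers, 2 and 0 for biogenesis, and 1 and 1 for both the citric acid cycle and the hypoxia list, where 4.81% and 1.97% of all genes rose and fell. Each of these counts above 0 was smaller without at least 1 array. In subcutaneous against dish samples they were 1 and 0 for complex II, 0 and 2 for complex III, 3 and 3 for complex IV and 1 and 0 for complex V assembly, 0 and 3 for electron carriers, 0 and 0 for biogenesis, and 1 and 2 for the citric acid cycle, beside 6.41% and 6.47% of all genes. The 2 of complex III were 0 without subcutaneous replicate 1 or dish replicate 1 or 2 and 1 without subcutaneous replicate 2, and the 1 of complex V was 0 without subcutaneous replicate 2 or dish replicate 2 or 3. For the citric acid cycle 0 rose without dish replicate 2 and 0 fell without dish replicate 1.

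**Figure D5:**
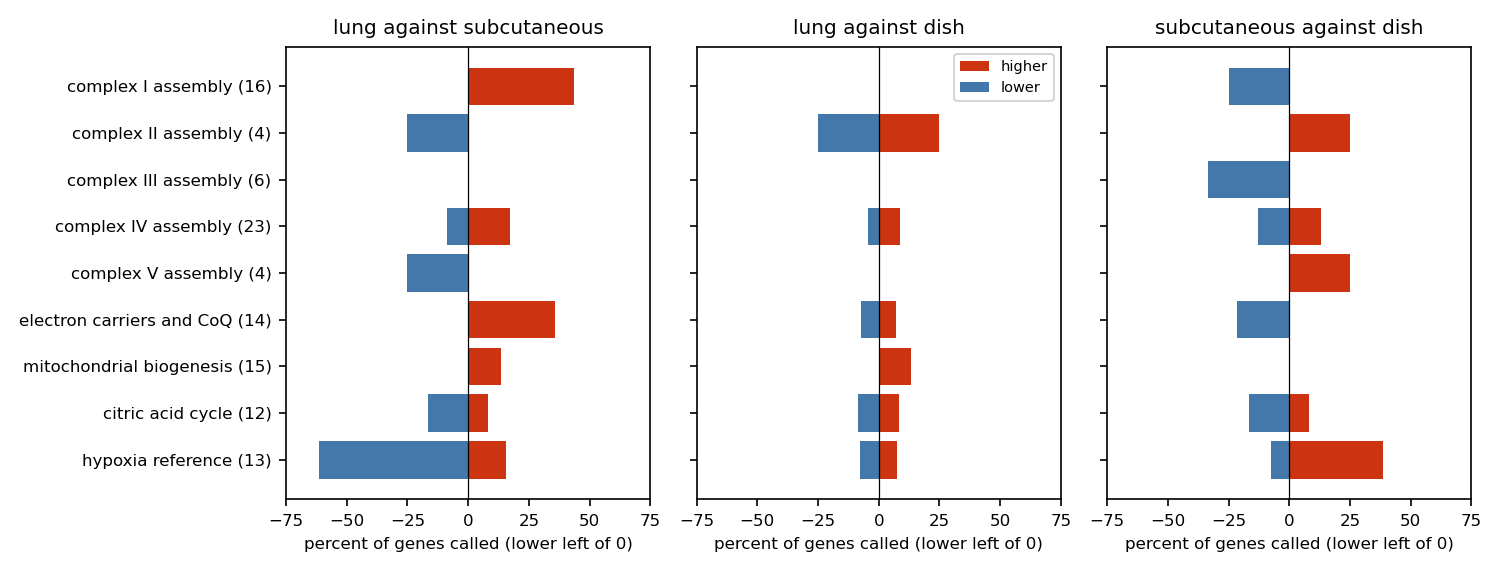
Bars give the percent of measured genes of each list called higher (right of 0) or lower (left of 0) in the 3 comparisons, with the number of genes measured in brackets. In lung against subcutaneous samples 7 of 16 complex I assembly genes are higher and 8 of 13 hypoxia genes lower.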

How the data were processed

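The deposited values are log2 signals, 28846 features by 9 arrays in 1 table. Per the labels' protocols, total RNA was column-purified and its cDNA fragmented and biotin-labelled. The summarization software, normalization and build used by the authors were not given in the sources used here. The values were used as deposited. A platform annotation gave 19572 features 1 symbol and 0 several, and 2634 gene features none. The feature with the highest mean was kept per gene, leaving 19505 genes with no filter on level. Groups and replicate numbers come from the sample titles. The test was limma 3.58.1 under R 4.3.3 (3 group means, 9 arrays, 6 residual and 7.08 prior degrees of freedom), two-sided, checked on simulated data. Where the dimmer group was under background on all 3 arrays, "at least" gives the brighter group's mean minus the dimmer group's mean background. Ratios within arrays were tested with an exact permutation test in SciPy 1.17.1. The number of arrays limits the precision.

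The genes, lists and tests were chosen with earlier results of these data known. Genes named with values are, per complex and comparison, the called genes of largest change without overlap between the groups, core subunits, and genes with an alternative form. From other lists the 1 or 2 called genes of largest change are named, with the exceptions marked, and markers of 9 other cell types were read. Replicate numbers did not pair the samples: deviations from group means of arrays with the same number correlated at -0.06 to 0.09. Alternatives were quantile normalization, a filter on dim genes, mean features, an intensity trend with robust fitting, array weights, only the groups compared, RIN as a covariate, a replicate block and leaving out each array.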

Additional observations from a re-analysis of the deposited data

How the results depend on the processing

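The 8 choices other than leaving out an array kept 12 of the 18 calls of respiratory chain genes in lung against subcutaneous samples, 1 of 3 in lung against dish and 5 of 13 in subcutaneous against dish samples under every choice, and 0 calls changed direction under any alternative. In lung against subcutaneous samples the 18 called genes became 23 with the filter on dim genes and 25 with an intensity trend. They became 19 with array weights and 12 with RIN as a covariate. With RIN, the calls of Ndufa9, Ndufb2, Sdhb, Cox4i2, Atp5c1 and Atp5g1 were lost. In the same order, the 3 of lung against dish became 6, 9, 12 and 1. The 13 of subcutaneous against dish became 21, 23, 12 and 5. With the filter, fewer genes were both fitted and adjusted over. The cause of these changes was not tested. Over all genes the 1322 calls of lung against dish became 3039 with array weights and 856 with RIN, and the 2513 of subcutaneous against dish 1280 with RIN. The medians by complex also moved under some of the alternatives, so their size is approximate. Leaving out 1 array gave 10 to 18 respiratory chain calls for lung against subcutaneous, 0 to 5 for lung against dish and 7 to 14 for subcutaneous against dish, and 1476 to 2928, 514 to 1442 and 1639 to 2738 over all genes. With the replicate number as a block, which the data do not bear out as a pairing, 17, 3 and 11 respiratory chain genes were called, and 2852, 1313 and 2475 over all genes. Signal under the negative controls limits Sdha and Ndufs1 under the skin, Ndufs1 also in the dish, and the 8 genes that were dim on all arrays.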
